A study of Mus musculus with 15 samples.

Results

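The pyruvate dehydrogenase complex is described here through 10 mouse genes, chosen by symbol with no measured value in the rule: the subunit genes Pdha1, Pdhb, Dlat, Dld and Pdhx, the kinase genes Pdk1, Pdk2 and Pdk4, and the phosphatase genes Pdp1 and Pdp2. They are 10 of the 25731 genes to which transcripts of the liver libraries could be matched. All 10 passed the filter on low counts and were among the 13967 genes tested.

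Pyruvate dehydrogenase is the mitochondrial complex that turns pyruvate into acetyl-CoA, the step that commits carbon from glucose to oxidation or to fatty acid synthesis. Its E1 enzyme, built from the Pdha1 and Pdhb products, decarboxylates pyruvate with thiamine pyrophosphate. The E2 core (Dlat) passes the acetyl group to coenzyme A on a lipoyl arm, and E3 (Dld), which is held to the core by the E3-binding protein (Pdhx), reoxidises that arm. Pdk kinases phosphorylate the E1 alpha subunit and switch the complex off, and Pdp phosphatases switch it on again. In liver, fasting and fat feeding are known to raise Pdk4, which spares pyruvate for glucose synthesis while fatty acids supply acetyl-CoA.

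Bulk RNA sequencing was done on livers of C57BL/6 mice, an inbred laboratory strain, with 5 libraries for each of 3 diets. Mice aged 12 weeks received either ketogenic diet (KD) or high-fat diet (HFD), and the livers set against them came from mice on chow diet (CD). Each diet, chow included, was fed for 3 days per the labels. The sources used here do not give the age of the CD mice, the sex, the diets' composition or the food intake. The study's title and design text place it among questions on low-carbohydrate feeding, insulin resistance and fatty liver.

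Summed estimated read counts were 34707597 to 50914494 in KD libraries, 30121672 to 44764257 in HFD libraries and 30190806 to 43688344 in CD libraries. The livers carried the hepatocyte markers of the list used, of which 6 of 7 were found and none was at 0 reads. Their summed level was 85420 to 94270 CPM (counts scaled to the normalised library total) in KD, 69620 to 82210 CPM in HFD and 75650 to 89690 CPM in CD livers, so HFD lay below KD. In HFD against CD, Alb and Ttr passed the test as lower and Cps1 as higher. The median log2 fold change of the 6 markers tested was 0.05 there. Of 5 stellate cell markers, Colec11 and Dcn were higher in KD against CD, and of 6 Kupffer cell markers, Cd5l and Vsig4 were higher in KD against HFD. Summed erythroid markers moved with diet, at 338 to 555 CPM in KD, 399 to 1167 CPM in HFD and 735 to 1076 CPM in CD livers, and all 5 erythroid genes passed the test as lower in KD than in CD. Summed B cell markers were 2.62 to 3.71 CPM in KD, 3.46 to 7.29 CPM in HFD and 4.47 to 14.7 CPM in CD livers. Summed markers of muscle, a tissue rich in Pdk4, were 0.491 to 4.10 CPM in KD, 0.545 to 1.09 CPM in HFD and 0.708 to 6.81 CPM in CD livers. The part of these cells in the values below was not tested. In bulk liver RNA, fewer cells of a type and less RNA per cell cannot be told apart.

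The 3 comparisons called partly different genes of the complex. In KD against CD, 7 of the 10 genes passed the test: Pdha1, Dld, Pdhx and Pdp2 rose, and Pdhb, Dlat and Pdk1 fell. A gene was called at an adjusted p under 0.05 in edgeR's quasi-likelihood test over all genes tested, and 30.8% of those genes were called in that comparison, 16.2% as higher and 14.6% as lower. In HFD against CD, 6 of the 10 were called, against 15.6% of all genes tested, 8.30% as higher and 7.32% as lower: Pdk2 and Pdp2 rose, and Pdhb, Dlat, Pdk1 and Pdk4 fell. In KD against HFD, 6 of the 10 were called, against 26.1% of all genes tested, 13.1% as higher and 13.0% as lower: Pdha1, Dlat, Dld, Pdhx and Pdk4 were higher in KD and Pdk2 was lower. The median log2 fold change over the 10 genes was 0.24, 0.02 and 0.20 in those 3 comparisons, and over all genes tested it was -0.01, 0.01 and -0.02. The comparisons of KD and HFD with CD share the chow libraries.

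These changes are relative to most other genes. With total-count scaling, calls over all genes were 2753 higher and 1265 lower in KD against CD and 2305 and 960 in KD against HFD, where the edgeR fit used here gave 2258 and 2038, and 1826 and 1818. On log2(TPM + 0.1) with limma, the median of all genes moved by 0.29 in both KD comparisons, with 4770 higher and 362 lower against CD and 4934 and 204 against HFD; in HFD against CD the calls were 137 higher and 353 lower, against 1159 and 1023 here. On that TPM scale the signs of Pdhb (0.12), Dlat (0.09) and Pdk1 (0.22) turned in KD against CD, and relative to the median of all genes they were -0.17, -0.20 and -0.07.

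**Figure D1:**
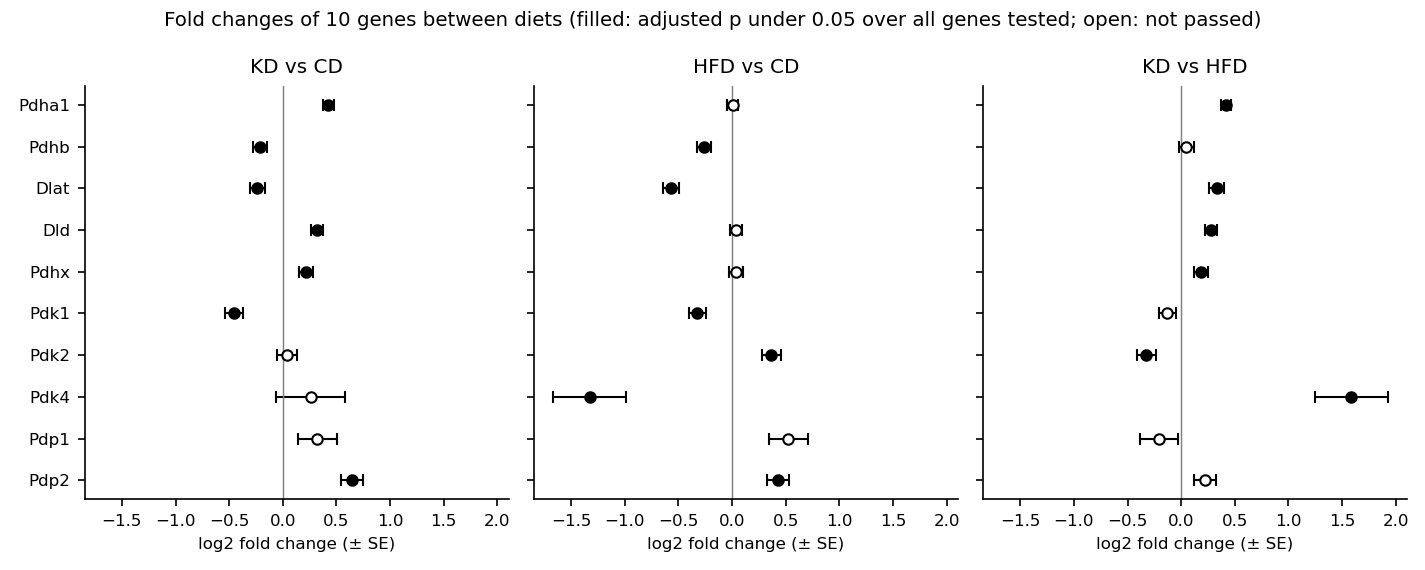
Log2 fold changes of the 10 genes (points) with their standard errors (bars) for KD against CD, HFD against CD and KD against HFD; filled points passed the test. Pdk4 spans the widest range, from -1.33 in HFD against CD to 1.59 in KD against HFD, and the subunit genes lie on both sides of 0 in KD against CD.

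Pdha1 (ENSMUSG00000031299.10, chrX:160122209-160138413, minus strand; GRCm38, as for all genes below), the E1 alpha subunit that the kinases phosphorylate, had the smallest adjusted p of the 10 genes in both comparisons of KD. It had 192, 189.8, 194, 185 and 200.2 CPM in KD livers, 147, 148, 143, 148 and 133 CPM in HFD livers, and 149.9, 136, 145, 144 and 141 CPM in CD livers. Every KD library lay above every HFD and CD library, and the HFD and CD libraries overlapped. Non-overlapping libraries were found for 22.3% of genes tested in KD against CD, 10.3% in HFD against CD and 17.0% in KD against HFD. Pdha1 rose by a log2 fold change of 0.42 ± 0.051 (SE, adjusted p = 5.754e-06) in KD against CD, which is 1.34-fold, and by 0.42 ± 0.051 (adjusted p = 1.294e-05) in KD against HFD. In HFD against CD its difference was 0.006, with a 95% interval of -0.09 to 0.11.

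Pdhb (ENSMUSG00000021748.9, chr14:8165996-8173025, minus strand), the E1 beta subunit, moved the other way from its partner on KD. Its libraries held 103, 98.2, 98.8, 94.7 and 107 CPM in KD, 102, 99.4, 93.2, 92.0 and 99.2 CPM in HFD, and 136, 102, 112, 115 and 117 CPM in CD. The HFD libraries lay below all CD libraries, whereas 2 KD libraries, at 103 and 107 CPM, lay above the lowest CD library. Pdhb fell by 0.21 ± 0.066 (SE, log2, adjusted p = 0.020) in KD against CD and by 0.26 ± 0.066 (adjusted p = 0.012) in HFD against CD. The KD call ended without CD library 15 (adjusted p = 0.067), without KD library 6 (0.052) or with total-count scaling (0.154).

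E1 is assembled from equal numbers of alpha and beta chains, and on a per-length scale the transcript ratio of Pdha1 to Pdhb differed by diet. In TPM (transcript abundance per length, scaled to the same total in every library), which allows genes to be compared within a library, the ratio was 0.935 ± 0.0275 in KD, 0.7098 ± 0.0602 in HFD and 0.592 ± 0.04997 in CD livers (SD, n = 5 each). KD ratios ran from 0.904 to 0.960, HFD ratios from 0.637 to 0.795 and CD ratios from 0.512 to 0.638. KD ratios thus stood apart from those of both other diets, and Pdhb stayed the higher of the pair in all 15 libraries.

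Dlat (ENSMUSG00000000168.9, chr9:50634633-50659780, minus strand), the E2 core, was lowest on HFD. KD livers had 49.0, 45.7, 48.1, 48.0 and 44.5 CPM, HFD livers 38.8, 37.0, 34.6, 41.6 and 35.1 CPM, and CD livers 55.7, 52.4, 55.3, 65.1 and 48.8 CPM. All HFD libraries lay below all those of the other diets, while the highest KD value, 49.0 CPM, just overlapped the lowest CD value, 48.8 CPM. Dlat fell by 0.57 ± 0.071 (SE, log2, adjusted p = 5.551e-05) in HFD against CD and by 0.24 ± 0.070 (adjusted p = 0.016) in KD against CD, and it was higher by 0.33 ± 0.071 (adjusted p = 0.0023) in KD against HFD. The KD call against CD ended with total-count scaling (adjusted p = 0.165) and, narrowly, without CD library 18 (0.0506).

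Dld (ENSMUSG00000020664.10, chr12:31331277-31351453, minus strand), the E3 dehydrogenase, also serves the 2-oxoglutarate and branched-chain 2-oxoacid dehydrogenases and the glycine cleavage system. It had 177, 187, 172, 173 and 180.2 CPM in KD, 151, 153, 140.4, 150.2 and 137 CPM in HFD, and 141, 129.9, 148, 153 and 141 CPM in CD livers. The KD libraries were all above the rest, and HFD and CD overlapped. Dld rose by 0.32 ± 0.056 (SE, log2, adjusted p = 0.00030) in KD against CD and by 0.28 ± 0.056 (adjusted p = 0.0013) in KD against HFD. In HFD against CD the difference was 0.04 (95% interval -0.07 to 0.14).

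Pdhx (ENSMUSG00000010914.10, chr2:103021075-103073513, minus strand), which tethers E3 to the core, had 27.0, 27.6, 27.6, 25.7 and 27.1 CPM in KD, 26.1, 24.9, 22.1, 23.6 and 22.3 CPM in HFD, and 26.7, 21.2, 21.7, 23.3 and 23.2 CPM in CD livers. The KD values were close together and overlapped with the top library of each other diet. Pdhx rose by 0.22 ± 0.065 (SE, log2, adjusted p = 0.016) in KD against CD. The call in KD against HFD (0.18 ± 0.065, adjusted p = 0.046) was lost in 9 of the 15 fits that left out 1 library, with adjusted p of 0.051 to 0.118.

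**Figure D2:**
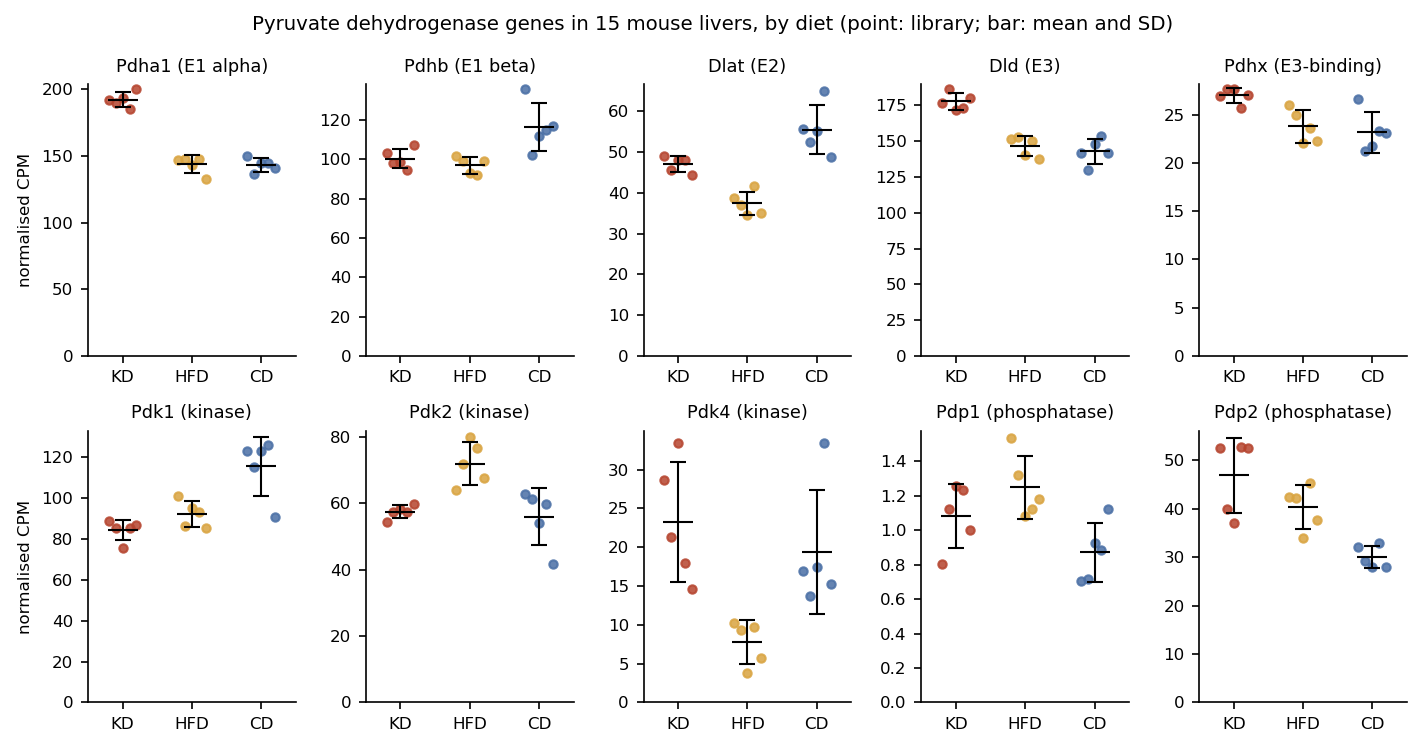
Normalised CPM of the 10 genes in each library (points) with the mean and SD (bars) of 5 KD, 5 HFD and 5 CD livers. Pdha1 and Dld stand above both other diets on KD, Dlat and Pdk4 are lowest on HFD, and 1 CD library has a Pdk4 value of 33.5 CPM.

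Summed over the 5 subunit genes, CPM was 544 ± 12.1 in KD, 449 ± 17.4 in HFD and 481 ± 26.6 in CD livers (SD, n = 5 each). KD sums ran from 527 to 559 CPM and the CD sums from 442 to 509.7 CPM, so the summed level was separate on KD although 2 of its 5 terms were lower. By TPM over all transcripts of each gene, Dld was the highest subunit gene in all KD livers (119 ± 11.5 TPM) and Pdhb in all CD livers (87.7 ± 9.10 TPM). That order depended on a short Dld transcript, which is not annotated as protein-coding, shares every one of its 631 words of 31 bases with other Dld transcripts and was assigned 24.7% of Dld TPM in KD, 18.8% in HFD and 19.2% in CD livers. Over protein-coding transcripts alone, Dld exceeded Pdhb in 2 of 5 KD, 0 of 5 HFD and 0 of 5 CD libraries. A similar short Dlat transcript held 54.6% of Dlat TPM in KD, 53.5% in HFD and 54.9% in CD livers.

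Pdk4 (ENSMUSG00000019577.6, chr6:5483351-5496309, minus strand), the kinase gene best known for its rise in fasting, had the largest fold changes of the 10 genes in HFD against CD and in KD against HFD. It had 28.7, 21.3, 33.4, 18.0 and 14.6 CPM in KD livers, 10.2, 9.34, 3.83, 9.74 and 5.69 CPM in HFD livers, and 17.0, 13.8, 17.5, 33.5 and 15.2 CPM in CD livers. All HFD values were below all others, and KD and CD values covered nearly the same range. The match at the top rested on 1 CD library, at 33.5 CPM. Without it the CD values ran from 13.8 to 17.5 CPM, and of the KD values only 14.6 CPM lay within that range. Pdk4 fell by 1.33 ± 0.34 (SE, log2, adjusted p = 0.020) in HFD against CD, to 0.399 of the CD level, and was 3.00-fold higher in KD than in HFD (1.59 ± 0.34, adjusted p = 0.0047). In KD against CD the difference was 0.26 ± 0.32 (adjusted p = 0.60), with a 95% interval of -0.37 to 0.89 that includes both a fall and a rise. The 33.5 CPM in CD came from library 18, whose summed muscle markers were 1.71 CPM.

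Leaving out 1 library at a time moved the KD difference from CD between 0.09 and 0.55, and no such fit passed (adjusted p = 0.19 to 0.87). The fall in HFD against CD ran from -1.45 to -1.04 in those fits, and the call ended without HFD library 14 (adjusted p = 0.052). The coefficient of variation of Pdk4 among livers of a diet was 33.3% in KD, 36.5% in HFD and 41.4% in CD, against 2.87%, 4.55% and 3.55% for Pdha1. Single libraries set some of these values: Pdk4 varied by 10.8% in CD without library 18 and by 23.6% in HFD without library 11, and Pdha1 by 1.91% in KD without library 8 and by 1.53% in HFD without library 14.

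Pdk2 (ENSMUSG00000038967.13, chr11:95026258-95041354, minus strand), a kinase gene expressed in most tissues, passed in HFD against CD and not in KD against CD. Its libraries had 54.4, 57.5, 58.2, 57.3 and 59.9 CPM in KD, 63.9, 71.8, 79.9, 76.7 and 67.7 CPM in HFD, and 62.7, 61.4, 53.9, 59.7 and 41.7 CPM in CD. The HFD libraries lay above all the others, and the KD libraries lay within the CD range. Pdk2 rose by 0.36 ± 0.090 (SE, log2, adjusted p = 0.010) in HFD against CD and was lower by 0.33 ± 0.090 (adjusted p = 0.012) in KD against HFD, where the call ended with total-count scaling (adjusted p = 0.055). In KD against CD the difference was 0.04 (95% interval -0.14 to 0.21). Pdk2 and Pdk4 thus moved in opposite directions in HFD livers, and each difference between KD and HFD was itself called.

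Pdk1 (ENSMUSG00000006494.11, chr2:71873224-71903858, plus strand), a kinase gene known as a hypoxia-responsive target of HIF-1, was lower on both fat-rich diets. KD livers had 88.6, 85.5, 75.6, 85.6 and 86.7 CPM, HFD livers 101, 86.5, 95.3, 93.2 and 85.5 CPM, and CD livers 123, 115, 123, 126 and 90.7 CPM. KD values lay below all CD values, and 3 HFD values lay above CD library 19, the lowest of its diet at 90.7 CPM. Pdk1 fell by 0.45 ± 0.080 (SE, log2, adjusted p = 0.00027) in KD against CD and by 0.33 ± 0.080 (adjusted p = 0.0099) in HFD against CD. The difference between KD and HFD over all its reads was -0.13 ± 0.080 (adjusted p = 0.25).

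The Pdk1 reads were divided over several annotated transcripts, and that division differed by diet. ENSMUST00000006669.5 is the protein-coding transcript. ENSMUST00000156036.7, the exon-skipping transcript, shares the end of its first exon with the coding one, lacks that one's exon 2 (chr2:71875406-71875547) and exon 7 (chr2:71887382-71887458), and has a shorter last exon (2003 bases, against 3875 bases). ENSMUST00000151358.7, the alternative-start transcript, begins at another first exon (chr2:71873743-71873818) and ends within exon 8. Neither of the last pair is annotated as protein-coding. The joins after the first exon, at which the 3 transcripts differ, are shown as 30 bases of the first exon, in capitals, and 30 bases of the next exon, in lower case, on the plus strand of GRCm38 with GENCODE M21 exons. The first-exon parts are chr2:71873536-71873565 for the coding and exon-skipping transcripts and chr2:71873789-71873818 for the alternative-start transcript.
Coding: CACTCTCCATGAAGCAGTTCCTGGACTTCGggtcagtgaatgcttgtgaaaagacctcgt
Alternative start: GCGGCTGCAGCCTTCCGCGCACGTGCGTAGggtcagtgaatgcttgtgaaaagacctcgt
Exon-skipping: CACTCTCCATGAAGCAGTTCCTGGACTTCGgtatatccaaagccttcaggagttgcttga

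The coding transcript had 40.4, 41.1, 33.9, 41.5 and 38.8 CPM in KD, 56.3, 47.6, 52.4, 54.7 and 47.8 CPM in HFD, and 69.9, 67.9, 69.8, 79.3 and 55.6 CPM in CD livers. KD libraries lay below all HFD libraries, and the HFD range reached just into the CD range. The alternative-start transcript ran the other way at 5.69, 3.87, 4.79, 4.17 and 3.32 CPM in KD, 2.98, 2.30, 2.82, 2.70 and 2.79 CPM in HFD, and 1.01, 2.36, 1.69, 1.01 and 0.158 CPM in CD livers. Its KD values lay above all others, and 1 CD library overlapped the HFD range.

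As a share of Pdk1 TPM, the coding transcript held 25.4 ± 1.67% in KD, 34.9 ± 1.46% in HFD and 40.5 ± 3.31% in CD livers (SD, n = 5 each), and the alternative-start transcript held 24.8 ± 4.38%, 16.1 ± 1.16% and 6.13 ± 3.96% in the same diets. Neither share overlapped between any pair of diets. The background was transcripts of tested genes with several transcripts, at a mean share of at least 5% in either diet compared. Among these, shares did not overlap for 4.93% in KD against CD, 1.71% in HFD against CD and 3.12% in KD against HFD. The exon-skipping transcript held 47.4 ± 3.23% in KD, 45.5 ± 1.79% in HFD and 48.2 ± 2.496% in CD livers, with overlapping libraries. The alternative-start transcript is only 777 bases long, so its share of estimated counts was smaller, at 5.20% in KD, 2.95% in HFD and 1.04% in CD livers. These shares are kallisto's estimates: of words of 31 bases, 27 of 747 in the alternative-start, 56 of 2942 in the exon-skipping and 1968 of 5155 in the coding transcript occur in no other Pdk1 transcript.

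With counts of protein-coding transcripts alone for every gene, the fall of Pdk1 was 0.84 ± 0.084 (SE, log2, edgeR adjusted p = 1.864e-06) in KD against CD and 0.40 ± 0.083 (adjusted p = 0.0050) in HFD against CD. Pdk1 was then also lower in KD than in HFD, by 0.44 ± 0.084 (adjusted p = 0.0015). That difference depended on the scale. In TPM the coding transcript was at 9.33 ± 0.755 in KD and 9.84 ± 1.75 in HFD livers (SD), with overlapping libraries. Over all its transcripts, limma on log2(TPM + 0.1) called Pdk1 higher in KD than in HFD (0.40, adjusted p = 0.031). The median of all genes moved by 0.29 there, and Pdk1 relative to it by 0.11.

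**Figure D3:**
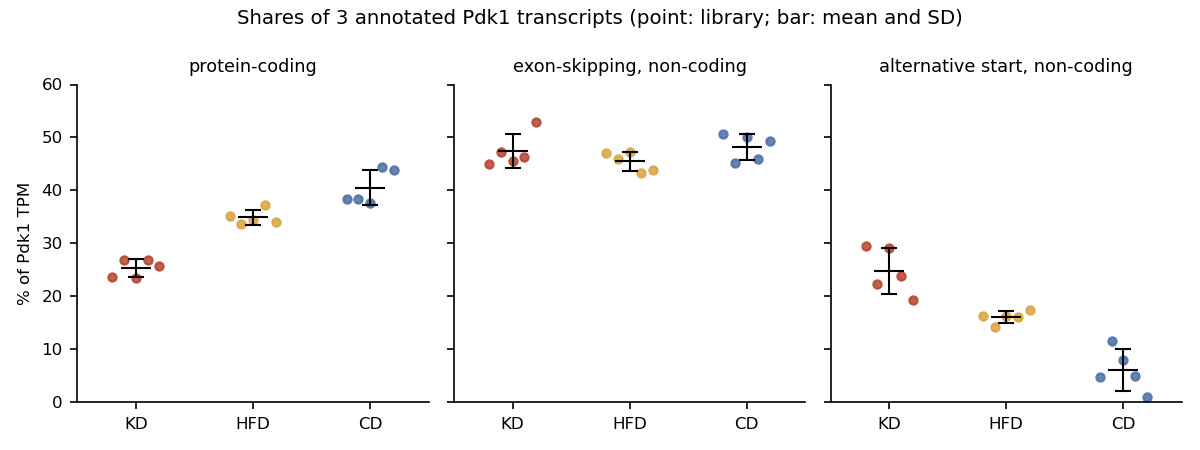
Share of Pdk1 TPM held by 3 annotated transcripts in each library (points), with the mean and SD (bars) of 5 KD, 5 HFD and 5 CD livers. The protein-coding transcript averaged 25.4% on KD and 40.5% on CD, and the alternative-start transcript averaged 24.8% on KD and 6.13% on CD.

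Pdp2 (ENSMUSG00000048371.8, chr8:104591451-104599026, plus strand), a phosphatase gene known mainly from liver and fat in rodents, rose on both diets. It had 52.5, 40.0, 37.1, 52.8 and 52.5 CPM in KD, 42.5, 42.3, 34.0, 45.3 and 37.6 CPM in HFD, and 32.1, 29.2, 28.0, 32.9 and 27.9 CPM in CD livers. Every KD and HFD library exceeded every CD library. Pdp2 rose by 0.65 ± 0.10 (SE, log2, adjusted p = 0.00013) in KD against CD and by 0.42 ± 0.10 (adjusted p = 0.010) in HFD against CD. Between KD and HFD the difference was 0.22 ± 0.10 (adjusted p = 0.12), and it passed without KD library 4 (adjusted p = 0.032).

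Pdp1 (ENSMUSG00000049225.14, chr4:11958184-11966452, minus strand), the calcium-stimulated phosphatase that dominates in muscle, was near the lower limit of detection, with 24 to 62 reads per library. KD livers had 0.803 to 1.25 CPM, HFD livers 1.09 to 1.54 CPM and CD livers 0.708 to 1.13 CPM. No comparison passed: the log2 differences were 0.32 ± 0.18 in KD against CD (SE, adjusted p = 0.20), 0.53 ± 0.18 in HFD against CD (adjusted p = 0.057) and -0.20 ± 0.18 in KD against HFD (adjusted p = 0.42). The HFD difference passed without CD library 19 (adjusted p = 0.034). With limma on log2(TPM + 0.1) the KD difference from CD passed (0.66, adjusted p = 0.0099), and relative to the median of all genes it was 0.37. By TPM, Pdp2 exceeded Pdp1 in all 15 libraries, at 10.2 ± 1.44 and 0.457 ± 0.0970 TPM in KD livers and 5.25 ± 0.718 and 0.255 ± 0.0708 TPM in CD livers.

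Of the family genes outside the set, Pdpr, a regulatory subunit of the Pdp1 phosphatase, had 20.4, 23.1, 21.4, 20.3 and 21.1 CPM in KD, 16.5, 17.2, 21.9, 23.7 and 22.0 CPM in HFD, and 11.8, 14.8, 15.0, 12.9 and 11.9 CPM in CD livers. The CD values lay below all others, and Pdpr rose by 0.68 ± 0.098 (SE, log2, adjusted p = 4.001e-05) in KD against CD and by 0.61 ± 0.098 (adjusted p = 0.00053) in HFD against CD. Pdk3, the remaining kinase gene, had 1 to 17 reads per library and passed in no comparison. Pdha2, the testis form of E1 alpha, had 0 reads in all libraries and was not tested.

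Set against each other per length, the kinase genes were in excess of the phosphatase genes in every liver. Summed kinase TPM over summed phosphatase TPM was 7.71 ± 1.38 in KD, 8.95 ± 1.16 in HFD and 11.9 ± 1.49 in CD livers (SD, n = 5 each). The KD ratios ran from 6.49 to 9.65, the HFD ratios from 8.09 to 10.9 and the CD ratios from 9.33 to 13.1, and the ranges of all 3 diets overlapped. Both overlaps with CD came from CD library 19, at 9.33; the other CD libraries began at 12.05, above every KD and HFD library. Over protein-coding transcripts alone the ratios were 4.93 ± 0.955 in KD, 6.17 ± 0.794 in HFD and 8.19 ± 0.960 in CD, and KD and CD libraries did not overlap. These ratios are levels of RNA and say nothing of enzyme activity or phosphorylation.

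Pdk4 made up 10.6 ± 3.25% of summed kinase TPM in KD, 3.50 ± 1.29% in HFD and 8.78 ± 3.01% in CD livers, and Pdk2 made up 44.0 ± 2.52%, 54.1 ± 3.37% and 42.2 ± 2.61% in the same diets. By all transcripts Pdk1 exceeded Pdk2 in 4 of 5 KD, 0 of 5 HFD and 5 of 5 CD libraries. Over protein-coding transcripts alone Pdk2 led in all 15, with 65.5 ± 3.65% of kinase TPM in KD, 73.4 ± 3.07% in HFD and 58.6 ± 4.43% in CD livers. The ratio of Pdha1 to Dlat was 3.08 ± 0.236 in KD, 2.77 ± 0.120 in HFD and 1.91 ± 0.194 in CD livers, and CD libraries, at 1.68 to 2.16, stood apart from the rest. Over protein-coding transcripts alone that ratio was 7.04 ± 0.589 in KD, 6.63 ± 0.544 in HFD and 4.41 ± 0.387 in CD livers. The CD libraries, at 3.78 to 4.81, again stood apart.

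**Figure D4:**
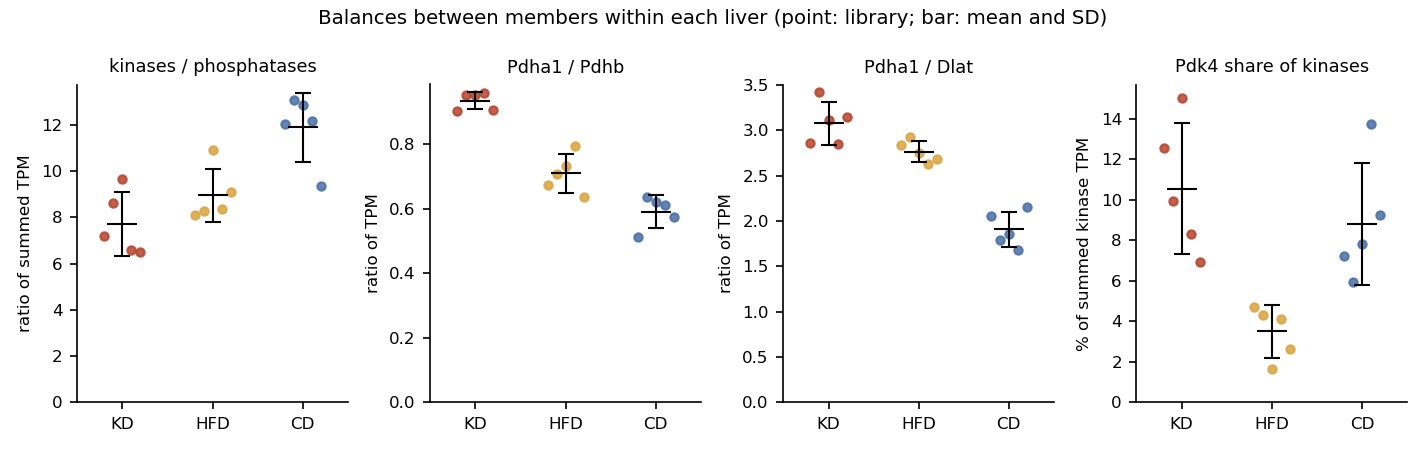
Ratios of TPM within each library (points) with the mean and SD (bars) of 5 KD, 5 HFD and 5 CD livers: kinases over phosphatases, Pdha1 over Pdhb, Pdha1 over Dlat, and Pdk4 in percent of kinase TPM. The Pdha1 to Pdhb ratio averaged 0.935 in KD and 0.592 in CD, and the Pdk4 share averaged 3.50% in HFD.

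Promoter sequence is shown for 3 regulatory genes, Pdk4 and Pdk2, which moved in opposite directions on HFD, and Pdp2, which rose on both diets. The windows are RefSeq's on GRCm38.p6, 250 bases before to 50 after the annotated start, and 9 of the 10 genes matched an entry, with 11 windows. Capitals mark the letters CACGTG (an E-box), CCAAT and GGGCGG (a GC box), each on either strand, so that ATTGG and CCGCCC are the last pair read from the other strand. Pdk4 is chr6:5496229-5496528 on the minus strand, Pdk2 is chr11:95041322-95041621 on the minus strand and Pdp2 is chr8:104591222-104591521 on the plus strand.
Pdk4: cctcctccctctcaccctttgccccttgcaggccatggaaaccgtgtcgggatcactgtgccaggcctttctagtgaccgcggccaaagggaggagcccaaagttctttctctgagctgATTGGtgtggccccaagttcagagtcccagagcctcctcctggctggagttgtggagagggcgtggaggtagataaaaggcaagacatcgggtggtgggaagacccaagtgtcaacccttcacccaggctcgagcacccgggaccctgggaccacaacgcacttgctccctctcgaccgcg
Pdk2: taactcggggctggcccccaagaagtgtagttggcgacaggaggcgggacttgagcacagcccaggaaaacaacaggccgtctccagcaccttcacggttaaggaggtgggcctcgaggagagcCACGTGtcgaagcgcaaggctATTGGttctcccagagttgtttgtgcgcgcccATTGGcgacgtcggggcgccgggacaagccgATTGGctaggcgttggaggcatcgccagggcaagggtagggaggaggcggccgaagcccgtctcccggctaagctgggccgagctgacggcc
Pdp2: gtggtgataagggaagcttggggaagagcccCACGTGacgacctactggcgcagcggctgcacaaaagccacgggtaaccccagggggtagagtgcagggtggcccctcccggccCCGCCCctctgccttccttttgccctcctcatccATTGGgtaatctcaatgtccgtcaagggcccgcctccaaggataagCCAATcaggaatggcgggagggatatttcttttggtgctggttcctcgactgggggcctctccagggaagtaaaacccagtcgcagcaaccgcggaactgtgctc

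The Pdk2 and Pdp2 windows each held CACGTG, at -126 and -219 from the start, and 7.15% of the 32851 mouse promoter windows hold it. ACGTG, the core of the hypoxia response element, which lies within CACGTG, was found in the Pdhb, Pdk2 and Pdp2 windows and in 19.6% of all windows. CCAAT was found for 6 member genes, 3 times each in the Pdk2 and Pdhb windows, and in 37.4% of all windows, and GGGCGG for 5 member genes and in 35.7%. The nuclear receptor core AGGTCA, its extended form AAGGTCA, the forkhead core TGTTTAC and TATAAA were found in none of the 11 windows, and 16.3%, 4.72%, 3.65% and 13.6% of all windows hold them. The search for CCAAT, for GGGCGG and for TATAAA was added after the data were seen. A missing match says only that these letters are not in that window.

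Around the complex, genes of pyruvate supply and use were mostly higher on KD than on CD. Of 14 such genes tested, 9 rose and 2 fell in KD against CD, with a median log2 fold change of 0.49. Of all genes tested, 16.2% were called higher and 14.6% lower in that comparison. Mpc1, a subunit of the mitochondrial pyruvate carrier, was at 265 ± 8.60 CPM in KD and 139 ± 9.90 CPM in CD livers (0.93 ± 0.070, adjusted p = 2.374e-08). Slc16a7, a monocarboxylate transporter, rose by 1.38 ± 0.089 (adjusted p = 4.955e-09) and Ldha, the lactate dehydrogenase A subunit, by 1.06 ± 0.086 (adjusted p = 6.371e-08), whereas Me1, the malic enzyme that makes pyruvate and NADPH, fell by 2.18 ± 0.17 (adjusted p = 2.993e-07). In HFD against CD, 4 rose and 3 fell (median 0.04), and in KD against HFD, 6 were higher and 2 lower (median 0.29). Over all genes tested, 8.30% were higher and 7.32% lower in HFD against CD, and 13.1% and 13.0% in KD against HFD.

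Among genes of acetyl-CoA use and of its supply from citrate, 3 of 8 rose and 5 fell in KD against CD (median -0.35). Those that rose included Acat1, which condenses acetyl-CoA (0.86 ± 0.064, adjusted p = 2.084e-08), and Crat, which moves acetyl groups to carnitine (0.83 ± 0.11, adjusted p = 2.297e-05). Acly, which remakes acetyl-CoA in the cytosol for lipogenesis, fell by 2.09 ± 0.24 (adjusted p = 2.134e-05). In HFD against CD, 1 rose and 6 fell (median -0.36), and in KD against HFD, 3 were higher and 1 lower (median 0.05). The shares called over all genes tested were 30.8% in KD against CD, 15.6% in HFD against CD and 26.1% in KD against HFD.

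The sister 2-oxoacid dehydrogenases, which share Dld or the lipoyl mechanism, were higher on both diets where they were called. Of 11 tested, 5 rose and 0 fell in KD against CD (median 0.32), 5 rose and 0 fell in HFD against CD (median 0.25), and 3 were higher and 1 lower in KD against HFD (median 0.12). With edgeR at an unadjusted p under 0.05, 0 and 2 were lower in the comparisons of KD and HFD with CD, and DESeq2 called 0 lower in both. Called shares over all genes tested were 30.8% in KD against CD, 15.6% in HFD against CD and 26.1% in KD against HFD. Bckdhb and Bckdha, the branched-chain E1 subunits, rose together in KD against CD (0.48 ± 0.070, adjusted p = 4.655e-05, and 0.43 ± 0.075, adjusted p = 0.00027), as did Dhtkd1 of lysine breakdown (0.46 ± 0.086, adjusted p = 0.00053) and Dlst, the 2-oxoglutarate E2 (0.33 ± 0.069, adjusted p = 0.0013). Of the pyruvate-specific subunit genes, Pdha1 and Pdhx were higher and Pdhb and Dlat lower in that comparison.

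Few cofactor genes of lipoylation and of thiamine supply were called in any comparison, and lists this short do not tell their shares from those of all genes. Of all genes tested, 30.8% were called in KD against CD, 15.6% in HFD against CD and 26.1% in KD against HFD. Of 9 lipoylation genes, 1 was higher in KD against CD, Iba57 of iron-sulfur cluster assembly (0.38 ± 0.091, adjusted p = 0.0034), 2 were lower in HFD against CD and 2 were higher in KD against HFD, with medians of 0.03, -0.07 and 0.13. Of 4 thiamine genes tested, 1 rose and 1 fell in KD against CD. The one that fell was Thtpa, a thiamine triphosphatase, by 0.26 ± 0.050 (SE, log2, adjusted p = 0.00052). In HFD against CD 1 thiamine gene was higher, and in KD against HFD 2 were lower. The medians of the thiamine genes were -0.15, 0.09 and -0.16.

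Of 12 known regulators of Pdk and Pdp genes, 5 rose and 1 fell in KD against CD (median 0.20), 2 rose and 1 fell in HFD against CD (median 0.11), and 4 were higher and 2 lower in KD against HFD (median 0.07). Called shares over all genes tested were 30.8%, 15.6% and 26.1% in those comparisons. Ppara, the fatty acid receptor of liver, was at 142 ± 16.3 CPM in KD, 82.7 ± 14.8 CPM in HFD and 52.1 ± 6.996 CPM in CD livers and rose by 1.45 ± 0.12 (SE, log2, adjusted p = 1.695e-07) in KD against CD. Ppard, its relative, was at 6.49 ± 1.23 CPM in KD, 11.2 ± 1.18 CPM in HFD and 23.6 ± 5.54 CPM in CD livers and fell by 1.86 ± 0.15 (adjusted p = 2.658e-07). Rxra, the partner receptor of both, rose by 0.46 ± 0.068 (adjusted p = 4.692e-05), and Hif1a by 0.22 ± 0.057 (adjusted p = 0.0058).

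Counts called among other targets of the factors known to induce Pdk4 are set beside the shares over all genes tested. Those shares were 16.2% higher and 14.6% lower in KD against CD, and 8.30% and 7.32% in HFD against CD. In KD against HFD they were 13.1% and 13.0%. Of 15 PPARalpha targets other than Pdk4, 13 rose and 0 fell in KD against CD (median 1.03), 2 rose and 3 fell in HFD against CD (median 0.16), and 13 were higher and 0 lower in KD against HFD (median 0.99). No target was lower in either KD comparison at an unadjusted p under 0.05 in edgeR, and DESeq2 called 0 lower. Cpt1a, the carnitine transferase of the outer mitochondrial membrane, rose by 1.79 ± 0.092 (adjusted p = 6.516e-10) and Acadm, a beta-oxidation enzyme, by 1.28 ± 0.075 (adjusted p = 2.125e-09) in KD against CD, the comparison in which Pdk4 did not pass. Of 6 FoxO1 targets, 2 rose in KD against CD, Trib1 (0.53 ± 0.16, adjusted p = 0.024) and Pck1 (1.29 ± 0.40, adjusted p = 0.027), 0 were called in HFD against CD (edgeR, with 1 at an unadjusted p under 0.05, and 0 with DESeq2), and Igfbp1 was higher in KD against HFD (2.28 ± 0.70, adjusted p = 0.031); the medians were 0.38, 0.11 and 0.24. Of 7 glucocorticoid targets, 3 rose in KD against CD, 1 in HFD against CD and 2 were higher in KD against HFD, with medians of 0.48, 0.43 and 0.44; Fkbp5, a chaperone of the receptor, rose by 1.91 ± 0.24 (adjusted p = 5.096e-05) in KD against CD.

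Within diets, the genes that varied most like Pdk4 over the 15 libraries, after each diet's mean was subtracted, were Tdp2 (Pearson r = 0.86), Lig1 (0.86), Lacc1 (0.85), Srpk2 (0.83) and Bcar3 (0.83). Those most like Pdk2 were Trpc4ap (0.97), Aplp2 (0.89), Reep6 (0.89), Zic1 (0.88, at a mean of only 0.222 CPM) and Sema4g (0.88). Without CD library 19, which had the lowest Pdk2 level at 41.7 CPM, they were 0.94, 0.65, 0.69, 0.63 and 0.75. For Pdha1 the most alike were St7 (0.88), Slc16a12 (0.85), Glrx (0.83), Pdzk1 (0.82) and Ugp2 (0.81). Without HFD library 14, St7, Slc16a12, Glrx and Pdzk1 gave 0.77, 0.69, 0.77 and 0.66. Between members the highest value was 0.80 for Dlat with Pdk4 (0.71 without CD library 18, which has the highest level of both genes). Next was 0.79 for Pdhb with Pdhx (0.59 without CD library 15). The lowest was -0.63 for Pdk2 with Pdp1 (-0.44 without CD library 19 and -0.85 without KD library 2). Pdha1 with Pdhb gave 0.52 (0.37 without CD library 16 and 0.81 without HFD library 14). The points share their library's depth and scaling. The genes most like Pdk4, Pdk2 and Pdha1 were picked as the highest of all genes tested, with predicted genes and pseudogenes left out. The highest and lowest member pairs were picked among all pairs of members.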

How the data were processed

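Livers of 15 mice were sequenced, and each library was taken as 1 mouse, unpaired; where nothing says that libraries came from separate animals, p-values measure only the spread between these samples. Per the submitters' processing notes, reads were trimmed with Trimmomatic 0.36 and assigned to transcripts with kallisto 0.44, edgeR 3.28 was used, and the build was GRCm38.p6; the sources used here do not give settings, annotation release or strand. Per the file headers, the deposited tables hold an estimated count and TPM for each of 106332 transcripts.

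Estimated counts were summed per gene with GENCODE M21 (105734 transcripts matched; the other 598, with 0.184 to 0.223% of counts, were left out) and rounded to whole numbers. Genes were kept by filterByExpr (minimum count 10, total 15). edgeR 4.0.16 fitted all 15 libraries together (TMM, robust quasi-likelihood F test, Benjamini-Hochberg over 13967 genes, threshold 0.05), and adjusted p values are from that fit. The SE is the log2 fold change divided by the square root of F. The 95% intervals use the normal distribution's multiple of that SE, so with few degrees of freedom they are somewhat too narrow. The common biological coefficient of variation was 0.1306, with 12 residual degrees of freedom, so spread between livers, more than depth, limits precision for all but Pdp1 and Pdk3. CPM uses TMM library sizes and serves to compare a gene between diets; the deposited TPM serves to compare genes within a library. In 49177 transcripts kallisto's effective length exceeded the length in at least 1 library, which bears on TPM and may bear on how counts were divided among transcripts. The sum over protein-coding transcripts was added after seeing the data. Code was tested on simulated data. Python 3.11.15 (matplotlib 3.10.9, pandas 2.3.3) and R 4.3.3 (DESeq2 1.42.0, limma 3.58.1) were used.

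The members, gene lists (pyruvate supply and use, acetyl-CoA use and supply, sister 2-oxoacid dehydrogenases, lipoylation, thiamine supply, regulators, targets of PPARalpha, FoxO1 and glucocorticoids, cell type markers) and tests were chosen with earlier results of these data known. Named genes are the members, Pdk3, Pdpr and Pdha2, up to 4 genes per list with the smallest adjusted p in KD against CD, and the 5 genes most like Pdk4, Pdk2 and Pdha1; Igfbp1 was named after its value was seen. Some genes that this rule names are not reported here. Alternatives were other scalings, DESeq2, other filters, 2 diets per fit, limma on log2(TPM + 0.1) and leaving out each library.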

Additional observations from a re-analysis of the deposited data

Results flagged for a closer look

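Of 30 groups of 5 libraries, a gene of the set in a diet, 2 held a library far from the rest of its group, and chance flags about 1 in 20 groups. The KD library 4 had the lowest Pdk1 level of its diet, at 75.59 CPM, where the other 4 had 85.5 to 88.6 CPM. The CD library 18 had the highest Pdk4 level of its diet, at 33.5 CPM, where the other 4 had 13.8 to 17.5 CPM; that library also had the highest Dlat level of all 15, at 65.1 CPM.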

How the results depend on the processing

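Of the fold changes of the 10 genes under all alternatives, 643 kept their direction and side of the threshold, 21 lost and 6 gained a call, and 17 changed sign. Under limma on log2(TPM + 0.1), genes called in HFD against CD numbered 490, against 2182, and members called 2, against 6. The members that lost their call were Pdhb (limma adjusted p = 0.24), Pdk1 (0.61), Pdk2 (0.22) and Pdp2 (0.15). The same setting turned Pdhb to 0.12, Dlat to 0.0946 and Pdk1 to 0.22 in KD against CD, and Pdk1 to 0.40, Pdk2 to 0.0034 and Pdp1 to 0.0911 in KD against HFD, where all genes moved by 0.29. Pdk1 was called in the last comparison, as higher in KD (limma adjusted p = 0.031). Pdha1 in HFD against CD, at 0.006, turned to -0.0057 with DESeq2, -0.0056 with its size factors in edgeR, -8.69e-05 with no filter, -0.0060 with the stricter filter and -0.0025 with only the 2 diets compared; leaving out a library gave -0.0126 to 0.0335. Pdk2 in KD against CD ran from -0.0492 to 0.0829 when a library was left out, and was -0.0492 without CD library 19. Counts of members called ran from 6 to 7 in KD against CD, 5 to 7 in HFD against CD and 5 to 6 in KD against HFD over the fits that left out 1 library. The cause of these changes was not tested. No paired analysis was possible because no label number recurs between diets. Depth limits Pdp1 and Pdk3, and the non-coding transcripts described for Pdk1, Dlat and Dld have 0 to 82 words of 31 bases of their own.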
